A study of Mus musculus with 9 samples.

Results

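The 9 genes described here are 7 members of the low-density lipoprotein (LDL) receptor family, Lrp1, Lrp1b, Lrp4, Lrp5, Lrp6, Lrp10 and Lrp12, together with the apolipoprotein genes Apoe and Clu, out of 15185 genes with a tested transcript. They were measured by RNA sequencing of laser-captured piriform cortex, the olfactory part of the cortical mantle, from wild type C57BL/6 mice labelled as 8 weeks old. The study's methods state a somewhat older age. Layers were cut from frozen coronal sections and recognised by the density of their neurons. The groups were labelled layer A, layer B and layer C, each with 3 replicates and with no treatment. No key in the sources used here ties the letters to the anatomical layers I, II and III, so the letters are kept. Nothing states whether replicates came from separate mice, or how many mice were used. The p-values therefore measure the spread between these libraries only, and would be too small where libraries of 1 group share an animal.

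For each gene, the transcript with the highest mean count over the 9 libraries was taken, and this choice used no layer label. Overlapping models of Apoe and of Lrp12 carried near-identical counts, so reads there were counted on more than 1 model and a count cannot be assigned to 1 isoform. For Apoe the chosen model and the next one had mean counts of 3259.3 and 3259.2, and for Lrp12 they had 424.1 and 423.2. For Lrp1b the pair had 1285.6 and 1109.9, and for Clu 4966.2 and 999.3. Lrp5 and Lrp10 had 1 model each. All 9 chosen models passed the filter on low counts.

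LDL receptor family proteins are single-pass membrane receptors built from ligand-binding repeats and, in many members, YWTD propeller domains that release ligands in acidic endosomes. LRP1 and LRP1B are very large endocytic receptors, LRP4 is the receptor of the synapse-organising protein agrin and a partner of the kinase MuSK, and LRP5 and LRP6 are the co-receptors through which Wnt proteins act together with Frizzled receptors. In the brain, apolipoprotein E and clusterin (apolipoprotein J) are carried on lipoprotein particles that come largely from astrocytes. Apolipoprotein E is recognised by receptors of this family through a cluster of basic residues.

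The NPXY motif (asparagine, proline, any residue, tyrosine) in the cytoplasmic tail recruits endocytic adaptors, and its codons are shown here because the members differ in it. Searched on the coding strand and in frame, NPXY codons stood 3 times in Lrp1, 3 times in Lrp1b and once in Lrp4, and nowhere in the coding sequence of the other 6 members. Of 21258 protein-coding genes, 3.64% held the motif. The last 150 codons held 2 of the motifs in Lrp1, 2 in Lrp1b and 1 in Lrp4. These are printed 5′ to 3′ from GRCm38 with the NPXY codons in capitals.
Lrp1 codon 4471, chr10:127539296-127539331, minus strand, exon 88 of 89: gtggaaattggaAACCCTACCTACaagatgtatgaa
Lrp1 codon 4505, chr10:127539052-127539087, minus strand, exon 89 of 89: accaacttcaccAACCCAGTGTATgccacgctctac
Lrp1b codon 4492, chr2:40600317-40600352, minus strand, exon 89 of 91: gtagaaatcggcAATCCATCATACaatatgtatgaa
Lrp1b codon 4559, chr2:40597036-40597071, minus strand, exon 91 of 91: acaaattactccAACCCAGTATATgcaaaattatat
Lrp4 codon 1766, chr2:91508509-91508544, plus strand, exon 37 of 38: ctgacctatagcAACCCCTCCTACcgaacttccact
The last NPXY lay 37 codons before the stop in both Lrp1 and Lrp1b, and 136 codons before it in Lrp4.

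Codons of other motifs were also counted, and these divided the receptors in different ways. Codons for YWTD, the signature of the propeller domain, stood 10 times in Lrp1, 9 times in Lrp1b, 12 times in Lrp4, 11 times in Lrp5 and 10 times in Lrp6, and were absent from Lrp10 and Lrp12. They were found in 0.193% of all protein-coding genes. PPPSP is the tail motif that is phosphorylated when Wnt binds, and the search also accepted threonine codons in place of serine. So searched, it stood 3 times in Lrp5 and 3 times in Lrp6 and in none of the other members (1.13% of all genes). In Apoe, the 9 codons with the most arginine and lysine codons, 6 in all, are shown because they fall in the receptor-binding region of the protein. Arginine and lysine codons are in capitals.
Apoe codon 152, chr7:19696836-19696862, minus strand, exon 3 of 3: CGCAAGatgCGCAAGCGCttgatgCGG

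Totals ran from 23104306 to 76471683 counts a library, in which a read can be counted on several models. The 2 mitochondrial ribosomal RNAs took 55.3% to 70.2% of counts in layer A, 12.8% to 28.1% for layer B and 20.5% to 57.1% in layer C, and their part in the differences below was not tested beyond leaving mitochondrial transcripts out. Values are given as normalized CPM, the usual rate of counts relative to library size after edgeR's TMM scaling. The limit that a count of 0 allows (3 counts) lay between 0.0255 and 0.254 normalized CPM and covers counting error only. Layer B replicate 3 stood apart from its group. It correlated at 0.934 and 0.924 with replicates 1 and 2, which correlated with each other at 0.989. Several results are therefore also given without it.

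Between layers A and B, 6 of the 9 members passed an adjusted p of 0.05, 5 of them higher in layer A (Lrp4, Lrp5, Lrp10, Apoe and Clu) and 1 lower (Lrp12). Of all 56416 tested transcripts, 16.5% were called in this comparison, and 20.9% of the highest transcripts of each gene were. The calls went up in layer A for 13.2% and down for 7.65% of those highest transcripts. The samples of 6 members did not overlap between these layers, as held for 38.2% of the highest transcripts. The median log2 fold change was 1.83 over the members and -0.12 over all tested transcripts. Between layers A and C, 4 members passed, Lrp4, Lrp5, Apoe and Clu, all higher in layer A, against 11.3% of all transcripts and 14.8% of the highest ones (9.34% higher and 5.47% lower). There the samples of 7 members did not overlap, against 35.9% of the highest transcripts. Tested for any difference at all, the data called the same 6 members as the comparison of layers A and B, against 18.5% of the highest transcripts. Between layers A and C the member median log2 fold change was 1.25, against -0.01 over all transcripts. Without layer B replicate 3, 6 members were called between layers A and B and 6 between layers A and C. Without layer C replicate 1 the count between layers A and C fell to 1. Between layers B and C no member was called, and no transcript at all was called by edgeR (0% of 56416). There 2316 transcripts, among them 1 member, had an unadjusted p under 0.05, and DESeq2 called 124 transcripts.

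**Figure D1:**
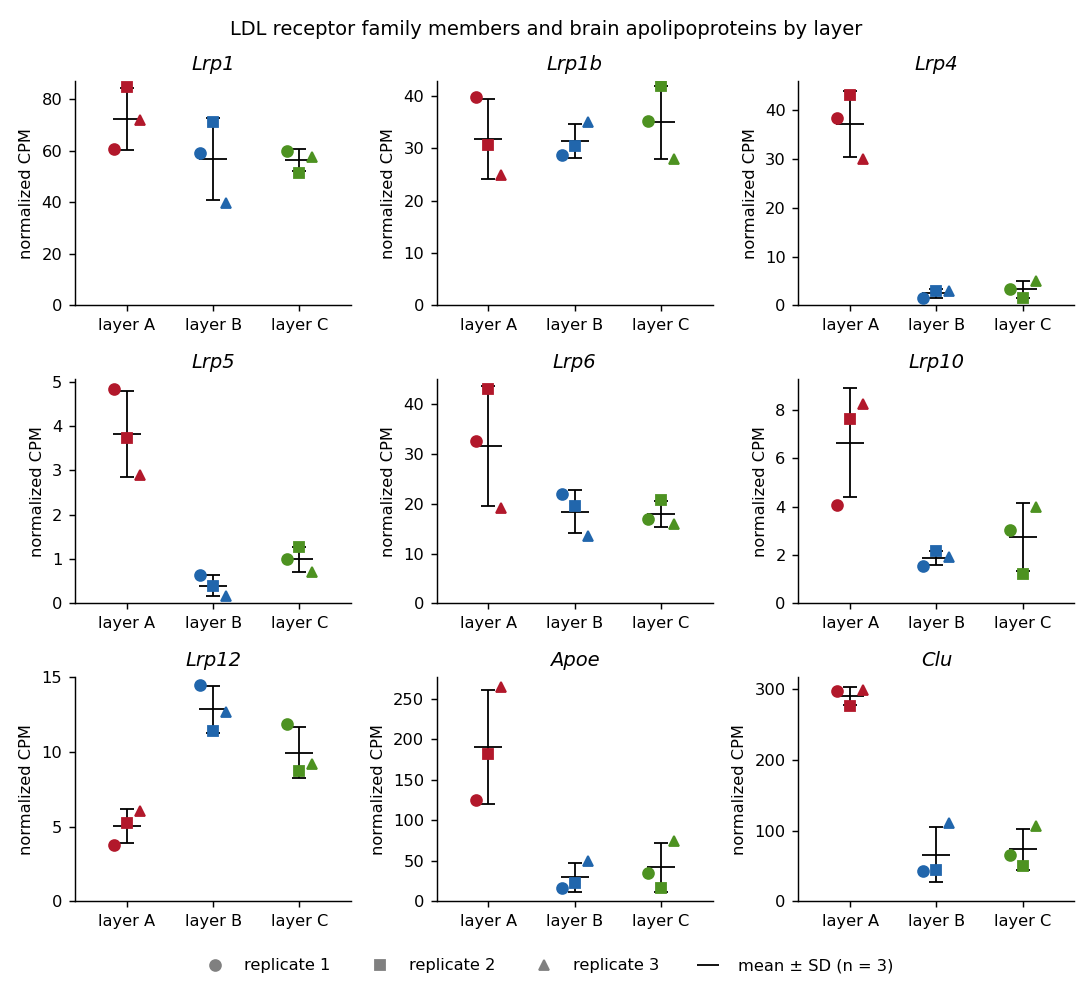
Normalized CPM of the 9 members in each of the 9 libraries, by layer, with every vertical axis starting at 0. Symbols are replicates and black bars are the mean ± SD of 3 libraries. Lrp4, Lrp5, Apoe and Clu lie higher in every layer A library than in any other, while Lrp12 lies lower and Lrp1b overlaps across layers.

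Among the endocytic receptors, the gene of LRP1, which clears apolipoprotein E, proteases and alpha-2-macroglobulin, was not called in any comparison. Lrp1 (ENSMUST00000049149, chr10:127538161-127621148, minus strand) had 60.8, 84.8 and 71.8 normalized CPM in layer A, 59.3, 71.1 and 39.9 for layer B and 59.8, 51.5 and 57.7 in layer C. The layer A and layer B libraries overlapped, and layer A stood just above layer C. The log2 fold changes were 0.35 ± 0.288 (SE) against layer B and 0.36 ± 0.288 against layer C (edgeR adjusted p 0.462 and 0.497).

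Lrp1b, its close relative, was not called either. In its chosen model (ENSMUST00000052550, chr2:40595248-42653624, minus strand) it had 39.9, 30.6 and 24.9 normalized CPM in layer A, 28.7, 30.4 and 35.0 for layer B and 35.2, 41.9 and 27.9 in layer C. All 3 layers overlapped. Its exons hold a 99-base gene of the same strand, Gm27348, not analysed here. The log2 fold change was 0.02 ± 0.29 against layer B and -0.14 ± 0.29 against layer C (adjusted p 0.979 and 0.831). The within-library log2 ratio of Lrp1b to Lrp1 per base was -1.33 ± 0.516 in layer A, -0.95 ± 0.554 for layer B and -0.83 ± 0.38 in layer C (SD, n = 3). These ratios overlapped between layers (exact permutation test, two-sided, p 0.5 for A against B and 0.3 for A against C, where 0.1 is the smallest p that 3 against 3 allows).

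Lrp4, the agrin receptor, had the largest difference among the 9 members. The model (ENSMUST00000028689, chr2:91457511-91513779, plus strand, 38 exons) had raw counts of 452, 645 and 1198 in layer A, 65, 127 and 147 for layer B and 134, 23 and 597 for layer C. In normalized CPM these were 38.3, 43.1 and 29.9 in layer A, 1.46, 2.93 and 3.06 for layer B and 3.29, 1.47 and 5.09 in layer C. The lowest layer A library was far above the highest of the other layers. The level was 14.9-fold higher in layer A than layer B (log2 3.90 ± 0.458, adjusted p 0.0002) and 11.0-fold higher than in layer C (log2 3.46 ± 0.448, adjusted p 0.00146). Layers B and C overlapped (log2 -0.43 ± 0.416, adjusted p 1.0). All 4 Lrp4 models in the files were called in both comparisons, though they share reads. The study listed Lrp4 among candidates chosen on these same samples, so its direction here is not independent evidence. Its separate evidence was in situ hybridization, for which it reported Lrp4 enriched in layers I and IIa. The study's list placed Lrp4 higher in layer I than in layer II, by a fold near the 14.9 of layer A over layer B. No source states a key, so the in situ result is not matched to the letters here.

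The within-library ratio of Lrp4 to Lrp1 per base does not depend on how libraries were scaled. On the log2 scale it was 0.24, -0.07 and -0.36 in layer A, -4.42, -3.69 and -2.79 for layer B, and -3.27, -4.19 and -2.59 in layer C. The 2 genes were thus read at about equal density in layer A only among these layers, and the difference was 3.57 against layer B and 3.29 against layer C (exact permutation test, two-sided, p 0.1 for each, the smallest p possible).

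Lrp5 and Lrp6, the Wnt co-receptors, differed from each other. Lrp5 (ENSMUST00000025856, chr19:3584828-3686556, minus strand) had the lowest mean level per kilobase of the members in every layer, with raw counts of 57, 56 and 116 in layer A, 29, 17 and 8 for layer B and 41, 20 and 84 for layer C. Its normalized CPM were 4.83, 3.74 and 2.89 in layer A, 0.651, 0.393 and 0.167 for layer B and 1.01, 1.28 and 0.715 in layer C. The 3 layers did not overlap at all, with layer B lowest. The level in layer A was 9.38-fold that in layer B (log2 3.23 ± 0.543, adjusted p 0.00116) and 3.88-fold that in layer C (log2 1.95 ± 0.516, adjusted p 0.0241). The second call was lost without any one of layer A replicate 1 or 2 and layer C replicate 1 or 3, with adjusted p between 0.0636 and 0.108. Layer B was lower than layer C by a log2 fold change of -1.27 ± 0.527 (unadjusted p 0.0285, adjusted p 1.0), and samples that do not overlap were found for 9.65% of the highest transcripts in that comparison.

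Lrp6 (ENSMUST00000032322, chr6:134446476-134566913, minus strand) had 32.6, 42.9 and 19.1 normalized CPM in layer A, 22.0, 19.5 and 13.6 for layer B and 16.9, 20.8 and 16.0 in layer C. Layer A replicate 3 lay within the range of both other layers. The log2 fold changes of 0.78 ± 0.335 against layer B and 0.82 ± 0.336 against layer C did not pass the test (adjusted p 0.135 and 0.142). Without layer A replicate 3 the first reached 1.06 (adjusted p 0.044). The log2 ratio of Lrp5 to Lrp6 per base was -1.89, -2.65 and -1.86 in layer A, -4.20, -4.73 and -5.40 for layer B and -3.19, -3.13 and -3.61 in layer C. It separated the 3 layers without overlap. Its differences were 2.65 for A minus B, 1.18 for A minus C and -1.47 for B minus C (exact permutation test, two-sided, p 0.1 for each, the smallest p possible).

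**Figure D2:**
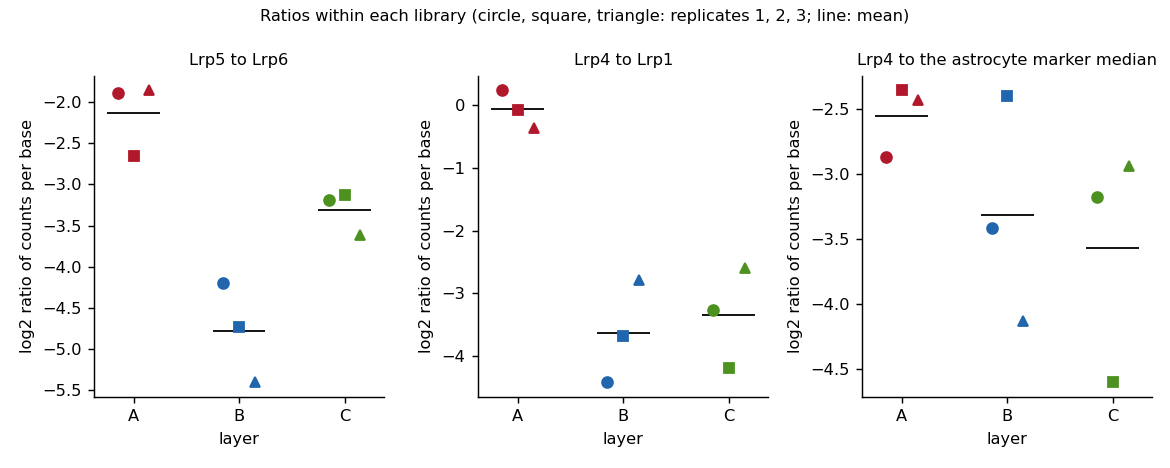
Log2 ratios of counts per base within each library (vertical axes, each with its own range) by layer, for Lrp5 to Lrp6, Lrp4 to Lrp1, and Lrp4 to the median of 12 astrocyte markers. Symbols are replicates and lines are means of 3. The first ratio separates all 3 layers, the second separates layer A from the others, and in the third layer A overlaps layer B.

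The smaller receptors Lrp10 and Lrp12, which lack YWTD codons, went in opposite directions. Lrp10 (ENSMUST00000022782, chr14:54464137-54471497, plus strand) encodes a receptor that cycles between the Golgi and endosomes. It had 4.06, 7.62 and 8.23 normalized CPM in layer A, 1.55, 2.15 and 1.92 for layer B and 3.04, 1.21 and 4.0 in layer C. Layer A was above both other layers, closely so for replicate 1. The log2 fold change was 1.83 ± 0.458 against layer B (adjusted p 0.0125) and 1.25 ± 0.45 against layer C (adjusted p 0.0906). The first was 1.75 with an adjusted p of 0.0503 without layer B replicate 1. DESeq2 called the second (adjusted p 0.0412), as did edgeR without layer B replicate 3 (0.049). The exons of Lrp10 share 475 bases with Gm10366 on the opposite strand, and the libraries did not keep strand, so reads there cannot be assigned to either gene. Gm10366 was not analysed here.

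Lrp12 (ENSMUST00000022916, chr15:39870589-39943788, minus strand) was the one member lower in layer A. It had 3.81, 5.28 and 6.08 normalized CPM there, 14.5, 11.4 and 12.7 for layer B and 11.9, 8.74 and 9.21 in layer C. No layer A library reached the others. The level was 2.52-fold lower in layer A than layer B (log2 -1.34 ± 0.325, adjusted p 0.0109), and the log2 fold change against layer C was -0.97 ± 0.324 (adjusted p 0.0677). The first call was lost without layer A replicate 1 (adjusted p 0.0508) or layer B replicate 1 (0.0604). The second was made by DESeq2 (0.0258), with counts summed over each gene (0.0401), with the highest transcript of each gene tested alone (0.0451) and without layer B replicate 3 (0.0348).

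Apoe and Clu, the ligand genes, had the highest levels per kilobase of the members in every layer. Apoe (ENSMUST00000173739, chr7:19696272-19698407, minus strand) had 125, 182 and 264 normalized CPM in layer A, 16.1, 23.1 and 49.7 for layer B and 35.3, 16.0 and 74.7 in layer C. Every layer A library exceeded every other, and replicate 3 was the highest of each layer. The level was 6.41-fold higher in layer A than layer B (log2 2.68 ± 0.53, adjusted p 0.00318) and 4.52-fold higher than in layer C (log2 2.18 ± 0.519, adjusted p 0.0152). Without layer B replicate 3 the first log2 fold change was 3.33, that is over 1.5 times the fold. Without layer C replicate 3 the second was 2.91, also over 1.5 times the fold. The call against layer C was lost without layer A replicate 3 (adjusted p 0.0535), layer C replicate 1 (0.092) or layer C replicate 2 (0.0567). All 10 Apoe models in the files were called higher in layer A than layer B.

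Clu (ENSMUST00000022616, chr14:65968483-65981547, plus strand) encodes clusterin, a secreted chaperone. It had 297, 276 and 299 normalized CPM in layer A, 43.0, 44.1 and 111 for layer B and 65.1, 49.4 and 106 in layer C. Layer A was tight and far above the rest, and layer B replicate 3 was more than double its 2 partners. The level was 4.39-fold higher in layer A than layer B (log2 2.13 ± 0.397, adjusted p 0.00222) and 3.95-fold higher than in layer C (log2 1.98 ± 0.395, adjusted p 0.00673). Without layer B replicate 3 the first log2 fold change was 2.79, again over 1.5 times the fold, and without layer C replicate 1 the second lost its call (adjusted p 0.0559). The log2 ratio of Clu to Apoe per base was 0.11 ± 0.536 in layer A, 0.60 ± 0.244 for layer B and 0.44 ± 0.567 in layer C (SD, n = 3), and overlapped between layers (exact permutation test, two-sided, p 0.3 for A against B and 0.6 for A against C).

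**Figure D3:**
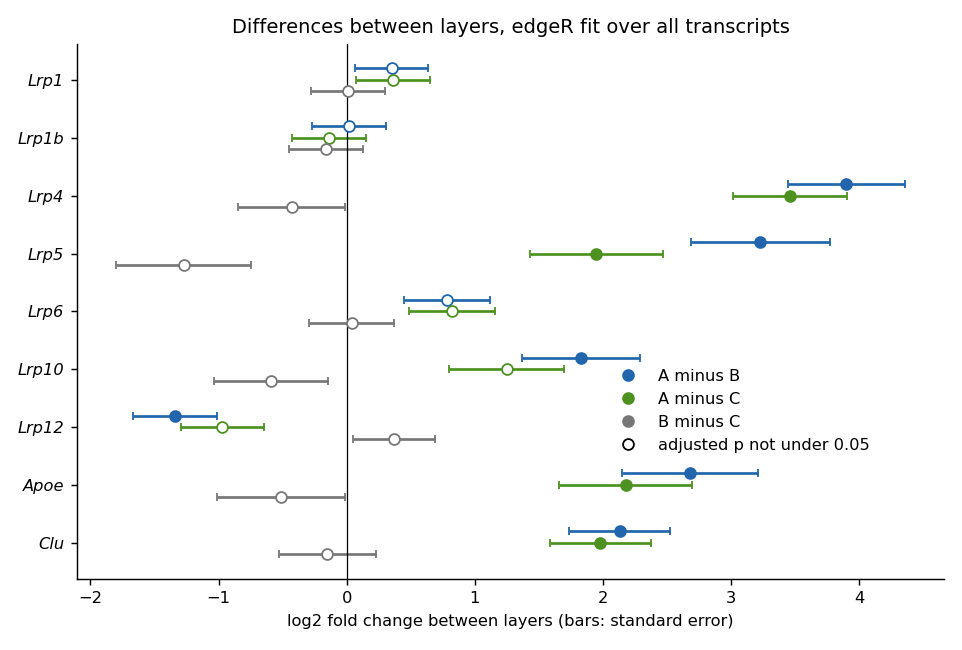
Log2 fold changes between layers for the 9 members (horizontal axis), with bars for the standard error of the edgeR fit. Filled points passed an adjusted p of 0.05. Lrp4 and Lrp5 lie farthest to the right for A minus B, at 3.90 and 3.23, Lrp12 lies at -1.34, and no point for B minus C is filled.

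Levels were compared between genes as normalized CPM per kilobase of the chosen model. In layer A the order of mean levels was Clu at 161 ± 7.06 (SD, n = 3), Apoe at 156 ± 57.0, Lrp1 at 4.87, Lrp4 at 4.68, Lrp6 at 3.36, Lrp1b at 1.95, Lrp10 at 1.57, Lrp12 at 1.23 and Lrp5 at 0.74. Among neighbours in that order, only the libraries of Apoe and Lrp1 did not overlap. In layer B, Clu at 36.6 and Apoe at 24.3 again led, and Lrp12 at 3.13 came after Lrp1 at 3.81. Lrp6 at 1.96, Lrp1b at 1.92 and Lrp10 at 0.442 followed, with Lrp4 eighth at 0.313 and Lrp5 last at 0.0782. The neighbours that did not overlap were Apoe and Lrp1, Lrp12 and Lrp6, Lrp1b and Lrp10, and Lrp4 and Lrp5. In layer C the same 2 genes led at 40.6 and 34.4, then Lrp1 at 3.78, Lrp12 at 2.42, Lrp1b at 2.15, Lrp6 at 1.91 and Lrp10 at 0.651, and Lrp4 was again eighth, at 0.414, above Lrp5 at 0.194. There Apoe and Lrp1, Lrp1 and Lrp12, and Lrp6 and Lrp10 did not overlap. Lrp4 and Lrp12 thus traded places between layer A and the other layers.

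Markers of other cells moved along with these genes, and in bulk tissue fewer cells of a type and less RNA per cell cannot be told apart. All 12 astrocyte markers were called higher for layer A, against layer B and against layer C. Their summed level was 5100 to 10731 normalized CPM in layer A, 734 to 1211 for layer B and 1261 to 1736 for layer C. Gfap, the astrocyte filament gene, had log2 fold changes of 4.29 and 4.34. Meningeal markers, called for 8 of 8 in both comparisons, summed to 71.7 to 166 in layer A, 1.36 to 7.97 for layer B and 4.44 to 5.98 in layer C. Some of them, such as Ogn, passed the filter on low counts only with layer A libraries, which favours their calls. Endothelial markers rose in layer A for 8 of 8 against layer B and 7 of 8 against layer C, with sums of 117 to 142, 8.45 to 22.1 and 16.8 to 27.6 in layers A, B and C. Pericyte markers rose for 6 of 6 in both (210 to 354, 16.2 to 56.6 and 45.5 to 66.4). Microglial markers rose for 6 and 5 of 8 (115 to 146, 17.8 to 49.8 and 40.2 to 57.9). Beyond the ratios to astrocyte markers given next, the part of these cells in the members' differences was not tested.

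Oligodendrocyte markers were called higher for 2 of 8 against layer B and 0 of 8 against layer C, and their sums were 170 to 268, 44.5 to 217 and 131 to 485 in layers A, B and C. Of 6 choroid plexus markers only Kl was tested, with a log2 fold change of 0.16 against layer B that did not pass, and Otx2 was at 0 in every library. Glutamatergic markers were lower in layer A for 3 of 8 against layer B and 5 of 8 against layer C, with Camk2a higher in both. Camk2a, whose mRNA is known to be carried into dendrites, made up most of their sum, at 2126 to 4131 normalized CPM in layer A, 740 to 882 for layer B and 751 to 1325 for layer C. With it the sums were 2341 to 4235, 1192 to 1259 and 1170 to 1703. The other 7 summed to 103 to 214, 378 to 455 and 260 to 419, lowest in layer A. GABAergic markers were called higher for 1 of 8 against layer B and lower for 2 of 8 against layer C, with sums of 194 to 355, 57.2 to 289 and 181 to 288. All 16 neuronal markers passed the filter.

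Set against the median of the astrocyte markers within each library, the members divided. The log2 ratio of Lrp4 to that median was -2.55 ± 0.278 in layer A, -3.32 ± 0.873 for layer B and -3.58 ± 0.897 in layer C (SD, n = 3). It overlapped between layers A and B with a difference of 0.76, or 0.35 without layer B replicate 3 (exact permutation test, two-sided, p 0.3 with all libraries) and did not between A and C (p 0.1, the smallest possible). The ratio of Apoe, at 2.45 ± 0.939, 2.86 ± 0.365 and 2.69 ± 1.08, overlapped throughout. That of Clu was 2.56 ± 0.418, 3.47 ± 0.252 and 3.13 ± 0.511, lower in layer A than layer B by 0.91 with no overlap (exact permutation p 0.1). Lrp5 overlapped between layers A and B, at -5.22 ± 0.0437 and -5.41 ± 1.96, through layer B replicate 3 alone. Without that library layer A was lower by a difference of -0.92 with no overlap, where all libraries gave 0.19. The ratio of Lrp5 was lower in layer A than layer C by 0.69 with no overlap (exact permutation p 0.1). That of Lrp10 overlapped between layer C and each other layer. It overlapped between layers A and B through layer B replicate 3, with a difference of -1.42, and without that library the difference was -1.99 with no overlap. Lrp1, Lrp1b, Lrp6 and Lrp12 were each lower relative to these markers in every layer A library than in any other, from a difference of -2.46 for Lrp6 to -4.55 for Lrp12 against layer B, or from -3.26 to -5.15 without layer B replicate 3.

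The genes with the most similar profile were found by the root mean square difference of centred log2 normalized CPM over the 9 libraries, among 6798 candidates. Nearest to Lrp4 were Tfcp2l1 at 0.348, Gfap at 0.431 and Sdc4 at 0.445. Nearest to Apoe were Htra1 at 0.26, Ntsr2 at 0.293 and Cst3 at 0.315, and nearest to Clu were Sema3c at 0.171, Mfsd2a at 0.201 and Grin2c at 0.208. Apoe and Clu differed from each other by 0.429, and Lrp4 differed from Apoe by 0.66 and from Clu by 0.752. The libraries share their layers, so these figures describe resemblance only.

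Over the highest transcripts of each gene, 13.2% were called higher and 7.65% lower in layer A against layer B, and 9.34% and 5.47% against layer C. Counts for the markers above and for the lists below stand beside these shares. Some counted genes passed the filter on low counts only with layer A libraries, which favours calls higher in layer A. Of 8 other receptors of the family that were tested, 6 were not called between layers A and B. Among the rest, Ldlrad3 was 3.82-fold higher in layer A than layer B (adjusted p 0.00529) and Lrp11 was 3.15-fold lower (adjusted p 0.00328), and their median log2 fold change was -0.15. Vldlr and Lrp8, the reelin receptors, had -0.83 (adjusted p 0.0794) and 0.16 (adjusted p 0.749). Against layer C, Ldlrad3 was higher, and Lrp11 and Sorl1, a sorting receptor for the amyloid precursor, were lower, Sorl1 by a log2 fold change of -0.95 (adjusted p 0.0408). Lrp2 was at or near 0 in all libraries and was not tested.

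Of 10 genes for chaperones, adaptors and regulators of the receptors, 3 were called higher in layer A against layer B and none lower. Among the highest transcripts these shares were 13.2% and 7.65%. Dab2, an endocytic adaptor for NPXY tails, had 11.9, 9.62 and 16.9 normalized CPM in layer A, 0.404, 0.508 and 1.14 for layer B and 0.883, 1.21 and 2.27 in layer C. It was 18.6-fold higher in layer A than layer B (adjusted p 0.000228). Gulp1, an engulfment adaptor that binds LRP1, was 10.5-fold higher (adjusted p 0.000675). Against layer C, Dab2, Gulp1 and Mylip, a ubiquitin ligase named here after its values were seen, were called higher. The chaperone genes Lrpap1 and Mesdc2 had log2 fold changes of -0.87 and -0.22 against layer B (adjusted p 0.0933 and 0.761).

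Of 15 ligands and modulators of LRP4, LRP5 and LRP6, a list that also holds reelin, 9 were tested. Of these, 3 were higher in layer A than layer B, against 13.2% of the highest transcripts. Agrn, the LRP4 ligand, had 23.4, 25.5 and 31.8 normalized CPM in layer A, 21.3, 28.4 and 29.9 for layer B and 19.3, 12.2 and 17.6 in layer C. Its layer A and layer B libraries overlapped, with a log2 fold change of 0.02 ± 0.295 against layer B (adjusted p 0.973) and 0.72 ± 0.297 against layer C (adjusted p 0.147). Musk was too low to test. Reln, a ligand of VLDLR and ApoER2, had a log2 fold change of 0.96 against layer B and 2.41 against layer C (adjusted p 0.0484 and 0.00157). It too was a candidate that the study chose on these same samples. Dkk3, a Dickkopf relative, was 2.26-fold higher than in layer B (adjusted p 0.0248) and Kremen1, a Dickkopf receptor, 4.09-fold (adjusted p 0.0186). Neither was called against layer C.

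Of 10 Frizzled receptors, the partners of LRP5 and LRP6, 4 were higher in layer A in both comparisons and none was lower. Among the highest transcripts, 13.2% and 9.34% were higher against layers B and C. Fzd6 was 11.2-fold higher than in layer B (adjusted p 0.000201), Fzd2 6.04-fold, Fzd4 5.24-fold and Fzd7 3.25-fold. The list median was 1.57 in both comparisons.

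Of 10 genes for LRP1 ligands, 6 were higher in layer A than layer B and 1 was lower, against 13.2% and 7.65% of the highest transcripts. The 6 include A2m, whose call is set aside below. Tfpi and Thbs2, a coagulation inhibitor and a thrombospondin, were 14.0-fold and 13.6-fold higher, and Hspg2, for perlecan, 8.32-fold (adjusted p 0.000842, 0.000917 and 0.0026). A2m, for alpha-2-macroglobulin, was called higher with 12, 16 and 55 counts in layer A against 3, 1 and 0 in layer B. It passed the filter on low counts through layer A alone, which favours its call against either layer, so that call supports nothing here. App, named after its values were seen, was 2.56-fold lower in layer A (adjusted p 0.00548). Against layer C, 7 were higher, again with A2m among them, and 1, App, was lower.

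**Figure D4:**
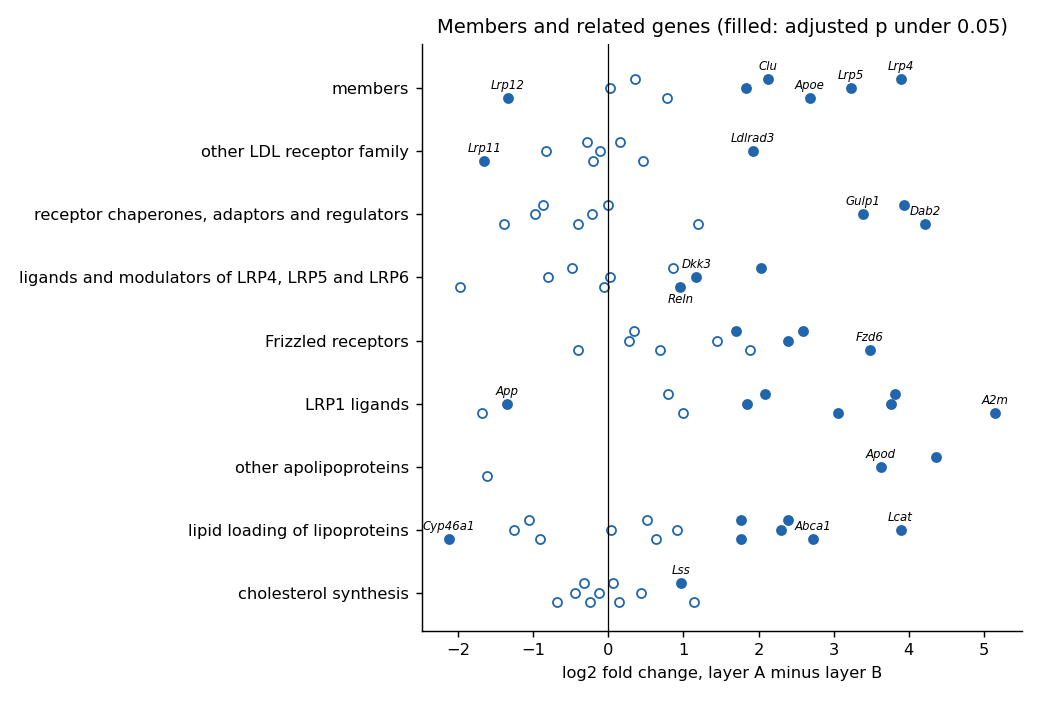
Log2 fold change of layer A minus layer B (horizontal axis) for the 9 members and for the tested genes of 8 related lists, 1 point a gene. Filled points passed an adjusted p of 0.05, and labels name some of them. Frizzled receptors and LRP1 ligands have filled points mostly above 0, and cholesterol synthesis genes have 1 filled point.

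Apod, of the other apolipoproteins, and some genes of a list for lipid loading and cholesterol handling were also higher in layer A. Of 7 other apolipoproteins, 3 were tested. Apod was 12.4-fold higher than in layer B (adjusted p 0.00298) and 7.75-fold higher than in layer C (adjusted p 0.0136). Apoc3 was called against layer B at 3, 12 and 18 counts in layer A and 0, 0 and 3 in layer B. It passed the filter on low counts only with layer A libraries, which favours its call, so that call supports nothing here. Of 14 genes for lipid loading and cholesterol handling, 6 were higher and 1 lower than in layer B. Among the highest transcripts these shares were 13.2% and 7.65%. Lcat, which esterifies cholesterol on particles, was 14.8-fold higher. Abca1, the transporter that lipidates apolipoprotein E, was 6.62-fold higher (27.4, 36.1 and 22.3 normalized CPM in layer A against 4.36, 4.53 and 4.06 in layer B). Pltp, for phospholipid transfer, was 4.94-fold higher and Npc1, for lysosomal cholesterol export, 3.39-fold. Their adjusted p-values were 0.000273, 0.000273, 0.000542 and 0.00181 in this order.

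Cyp46a1, the neuronal cholesterol hydroxylase, named after its values were seen, was 4.35-fold lower in layer A than layer B (adjusted p 0.00449). Abca7 had a log2 fold change of 0.04 (adjusted p 0.972). The transporter genes Abcg1 and Abcg4, also named after their values were seen, had -0.91 and -1.06 and were not called (adjusted p 0.0836 and 0.065). Against layer C, 4 genes of the lipid loading and cholesterol handling list were higher and 1 was lower. Of 10 tested cholesterol synthesis genes, Lss was 1.96-fold higher in layer A than layer B (adjusted p 0.045) and none was called against layer C, with list medians of -0.04 and 0.24.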

How the data were processed

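The authors deposited raw counts per Ensembl transcript for each library, from amplified, strand non-specific, paired-end libraries. The labels name bcl2fastq 1.8.4, Bowtie, HTSeq 0.5.3 and mm10, and the annotation release and counting mode are not given in the sources used here. Of 95533 identifiers, 82807 (86.7%) were found in GENCODE M21 (GRCm38), which gave names, coordinates and coding sequences. The 56416 transcripts that reached 10 counts in 3 or more libraries were fitted over all 9 libraries with TMM scaling and the quasi-likelihood test of edgeR 4.0.16 in R 4.3.3, with Benjamini-Hochberg adjustment over all of them. Differences with an adjusted p under 0.05 were called. The script was tested on simulated data. Within-library ratios used counts plus 0.5 per base and two-sided exact permutation tests. Alternatives included DESeq2 1.42.0, other scaling, filters and counting units, and each library left out.

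The members and gene lists were chosen with earlier results of these data known. All members were named, and from each list up to 4 genes called between layers A and B by smallest p, plus direct partners of members. Profile resemblance was computed among genes with a mean of at least 5 normalized CPM. Same-numbered libraries did not deviate together for every number, so replicate numbers were not used as pairs. Those of replicate 3 correlated weakly, as given below. Hmgcs1 was not analysed here, and 2 genes of the lists are counted but not reported singly.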

Additional observations from a re-analysis of the deposited data

How the results depend on the processing

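The cause of the changes below was not tested, except that fewer features were tested with gene sums or with the highest transcript of each gene. Under these 2 units 3567 and 3697 features were called between layers A and B, 2623 and 2778 between A and C, and 1 and 4 between B and C, against 9329, 6389 and 0 transcripts. DESeq2 called 124 and no filter on low counts 10 between B and C. With 1 library left out, transcripts called ran from 5570 to 11337 (A and B), 1369 to 9740 (A and C) and 0 to 17 (B and C). Members called ran from 4 to 7 (A and B), from 1 to 6 (A and C) and stayed at 0 (B and C). With a count of 10 in all libraries Lrp5 had no value. Log2 fold changes that changed sign were uncalled, with values from -0.51 (Apoe, B and C) to 0.04 (Lrp6, B and C) in all libraries. Lrp1b (A and B) was -0.02 without the filter, Lrp1 (B and C) was -0.00 with RLE factors and DESeq2, -0.01 with upper-quartile factors and without mitochondrial transcripts, and -0.02 without the filter, and Lrp6 (B and C) was -0.00 with gene sums. Leaving out 1 library gave -0.17 to 0.19 for Lrp1b (A and B), -0.33 to 0.03 for Lrp1b (A and C), and between B and C -0.21 to 0.16 for Lrp1, -0.76 to 0.00 for Lrp4, -0.15 to 0.17 for Lrp6, -1.16 to 0.18 for Apoe and -0.81 to 0.18 for Clu. The log2 ratio of Apoe to the astrocyte marker median differed by -0.89 to 0.05 (A and B) and -0.83 to 0.23 (A and C), and that of Lrp5 by -0.92 to 0.92 (A and B). Lrp5 had only 8 to 29 counts a library in layer B, which limits its precision there.

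Deviations of same-numbered libraries correlated at -0.155 to 0.264, and those of different numbers at -0.343 to 0.42. For replicate 3 all were positive, at 0.162 (A and B), 0.264 (A and C) and 0.199 (B and C). Pairs of a replicate 3 library with another number ran from -0.343 to 0.138. Replicate 3 also had the highest total count of each layer, and whether these libraries share a batch was not tested. With the replicate number as a block, 9184, 6384 and 0 transcripts and 6, 4 and 0 members were called, and Lrp1b (A and B) was -0.01 and Lrp1 (B and C) -0.02. The block changed no other call among the members.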

Other observations

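Short models of Clu and Apoe took an uneven share of the chosen model's count. For Clu, the 1004-base model ENSMUST00000153460, which stops before the 3′ end of the gene, had 14.3% to 33.3% of the chosen model's count in layer A, 5.32% to 33.6% for layer B and 19.1% to 24.5% for layer C. The lowest share was that of layer B replicate 3. For Apoe, the 817-base model ENSMUST00000172983 had 32.9% to 49.8%, 22.6% to 56.5% and 31.5% to 52.6%, and layer B replicate 3 was again lowest. Between layers A and B both short models were nevertheless called higher in layer A, with log2 fold changes of 2.48 for Clu and 2.83 for Apoe. Over all 48 tested models of the 9 members, which share reads, 25 were called higher and 2 lower for layer A against layer B, and 23 higher and 0 lower against layer C. The 25 include 10 models of Apoe and 9 of Clu. Over all 56416 tested transcripts, 6039 were higher and 3290 lower against layer B, and 3937 and 2452 against layer C.

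Sorl1 and Reln differed between layers B and C before adjustment. Sorl1 had mean levels of 77.0 and 130 normalized CPM in layers B and C, a log2 fold change of -0.75 with an unadjusted p of 0.0172 in edgeR, and Reln had 47.7 and 17.4, a log2 fold change of 1.45 with an unadjusted p of 0.000363. Neither passed the adjustment over all transcripts, and 2316 transcripts had an unadjusted p under 0.05. The study listed Reelin among candidates chosen on these same samples, so its difference is not independent evidence. By immunohistochemistry the study reported Reelin enriched in layer IIa.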
